A study of Mus musculus with 43 samples.

Results

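The forkhead (Fox) and Sox genes encode 2 families of DNA-binding proteins, and 58 of them were taken from a table of 22462 genes by symbol: 42 Fox genes of classes A to S and 16 Sox genes. Sox2, Sox7, Sox17, Foxa2 and Foxd3 were left out by the rule, as were antisense and overlapping transcripts named after a member. The series is on MTF2, a Polycomb-like subunit of Polycomb repressive complex 2 (PRC2), in E14 (ES-E14TG2a) mouse embryonic stem cells grown with serum and LIF on gelatin. It holds 43 samples: 36 ChIP-seq samples, 1 input and 6 libraries of oligo-dT selected RNA, of which 3 came from cells of genotype Control and 3 from cells of genotype MTF2 KO. The ChIP-seq groups, which also include MTF2 KO cells rescued with wild-type or K339A MTF2, were not analysed here. The design text calls the replicates biological, and the sources used here do not give the number of knockout clones.

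Forkhead proteins bind DNA through a winged-helix domain and Sox proteins through an HMG box that bends the minor groove. Both families hold pioneer factors, which can reach their sites in closed chromatin, and many members are lineage regulators with CpG-rich promoters that PRC2 marks with H3K27me3 in embryonic stem cells. Other members, such as the FOXO, FOXK and FOXM1 proteins, act in metabolism and the cell cycle of most cells. MTF2 binds CpG-rich DNA and helps bring PRC2 to such promoters.

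All levels here are FPKM, fragments scaled to transcript length and library size, and the authors' deposited table gives 1 pooled value per gene and genotype. Values per library, their SD and the depth per library are therefore unknown. Summed over all genes, the level was 559237 FPKM in control cells and 504845 FPKM in knockout cells, so summed levels below start from unequal totals. The only measure of error is the deposited test score, which divides the log ratio by its estimated error. The error quoted below is the deposited log2 fold change divided by that score. The Cuffdiff p does not follow from the score alone. Sox17, with a score of 4.15, had a Cuffdiff p of 0.0946, and Foxj2, with 1.67, had 0.00615. A gene is called where the authors tested it and their Cuffdiff q, an adjusted p, was at or under 0.05. Ratios are log2((knockout FPKM + 0.5)/(control FPKM + 0.5)), so that changes of low genes are understated. In the cells labelled knockout, Mtf2 (chromosome 5, 108065742 to 108132620, mm10) was listed at 44.7 FPKM against 74.3 FPKM in control (log2 ratio -0.73, Cuffdiff q = 0.0496 in the authors' deposited table), so transcript remained. Of 10 embryonic stem cell markers, 9 were tested, and 2 were called higher (Tfcp2l1 and Tdgf1) and 0 lower. 3 had an unadjusted Cuffdiff p under 0.05, and the median log2 ratio was -0.11. The summed level of the 10 was 5225 FPKM in control cells and 5156 FPKM in knockout cells. Within that sum Dppa5a (1481 and 1876 FPKM) and Zfp42 (725 and 492 FPKM) went opposite ways, neither of them called. Dppa3 was listed at 0 in control cells. Of 13 primitive endoderm markers, 10 were called higher and 0 lower, and their summed level was 238 and 1580 FPKM. 3 of those 13, Sox7, Sox17 and Foxa2, are family genes outside the rule. Of the called ones, Gata4 and Sox7 lie on chromosome 14, and Col4a1 and Col4a2 on chromosome 8. Both chromosomes held raised genes near Sox21 or Sox1, given below.

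Of the 58 genes, 28 were tested by the authors, 19 Fox and 9 Sox genes. 3 were called higher in knockout cells, Foxq1, Sox21 and Foxj2, and 2 were called lower, Foxn4 and Sox4. The other 23 were not called. The 5 calls are 17.9% of the tested members, and 12.9% of all 11362 tested genes were called. In the higher direction the share over all tested genes was 6.9%, and in the lower direction 6.03%, so the counts of 3 and 2 among 28 lie near the background. The median log2 ratio of the tested members was 0.02, with an interquartile range of -0.34 to 0.29, beside -0.0035 and a range of -0.40 to 0.47 over all tested genes. In these bulk libraries, fewer cells of a type and less RNA per cell cannot be told apart. The raised primitive endoderm markers stand beside every difference below, and their part in these results was not tested.

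**Figure D1:**
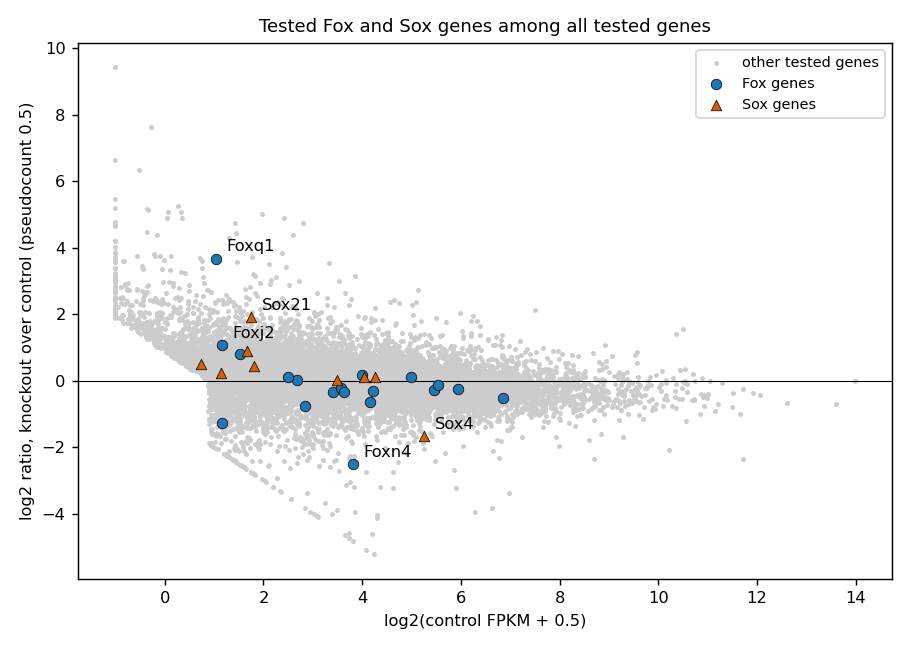
Log2 ratio of knockout over control FPKM (pseudocount 0.5) against log2(control FPKM + 0.5) for all tested genes (grey), the 19 tested Fox genes (circles) and the 9 tested Sox genes (triangles). The 5 named genes are those the authors' q calls, with Foxq1 highest at 3.67 and Foxn4 lowest at -2.51.

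Foxq1, a forkhead gene known from epithelial and hair follicle cells, was listed at 1.55 FPKM in control cells and 25.6 FPKM in knockout cells. Knockout cells were thus 16.6-fold higher, with a log2 ratio of 3.67, an error of 0.95 and a q of 0.0012 by Cuffdiff, per the authors' deposited table. That q is the smallest the table holds and is shared by 472 genes. Foxq1 (chromosome 13, 31556134 to 31560976, mm10) shares its locus entry with A530084C06Rik, which was listed at 3.28e-06 and 1.17 FPKM and was not tested. The sources used here do not say whether the counting used strand, so reads of overlapping genes cannot be told apart.

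Foxf2 and Foxc1 lie next to Foxq1, 64.8 kb after Foxq1 and 175 kb after Foxf2. Both are mesenchymal regulators, and both stayed under 1 FPKM. Foxf2 was listed at 0.191 FPKM in control cells and 0.721 FPKM in knockout cells, and Foxc1 at 0.293 and 0.771 FPKM. Neither was tested, so the called difference in this cluster is that of Foxq1. The tested genes nearest to Foxq1, 10 on each side, had a median log2 ratio of 0.18, with 1 called higher and 0 lower.

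Sox21, a SoxB2 repressor that opposes the SoxB1 activators in neural progenitors, was listed at 2.88 FPKM in control cells and 12.2 FPKM in knockout cells. The log2 ratio was 1.91 with an error of 0.63 (Cuffdiff q = 0.0012 in the authors' deposited table). Sox21 lies on chromosome 14 (118233232 to 118237030, mm10), where the 383 other tested genes had a median log2 ratio of 0.70. Its 20 nearest tested genes had a median of 0.74, and 8 of them were called higher and 0 lower. After that median is subtracted, 1.17 of the log2 ratio of Sox21 remained. The part of the raised chromosome in this call was not tested. With a normal p taken from the deposited score and adjusted over all tested genes with a score, Sox21 was not called (q = 0.0683). That p is far stricter: it called 124 genes in all, where Cuffdiff called 1469.

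Foxj2, a widely expressed activator, was listed at 1.73 FPKM in control cells and 4.16 FPKM in knockout cells. The log2 ratio was 1.06 with an error of 0.75 (Cuffdiff q = 0.0483 in the authors' deposited table). This q lay just inside the threshold, and Foxj2 was not called at a q of 0.01 or with the p from the score (q = 0.742). The 2 members just outside it were Sox1 at a q of 0.0718 and Foxp4 at 0.0907 in the authors' deposited table.

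Foxn4, which drives amacrine cell and V2b interneuron fates, was listed at 13.6 FPKM in control cells and 1.97 FPKM in knockout cells. No other of the 28 had a lower log2 ratio than its -2.51, with an error of 0.75 (Cuffdiff q = 0.0012 in the authors' deposited table). Its neighbours on chromosome 5 (Foxn4 spans 114254164 to 114273807, mm10) had a median of -0.12, and 1 of 20 was called higher and 0 lower. The difference between Foxn4 and that median was -2.39.

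Sox4, a SoxC activator of progenitor and epithelial cells, was listed at 37.6 FPKM in control cells and 11.5 FPKM in knockout cells. The log2 ratio was -1.66 with an error of 0.42 (Cuffdiff q = 0.0012 in the authors' deposited table). Among the 16 Sox members Sox4 had the highest control level, and in knockout cells it stood below Sox12, Sox15 and Sox21. Its neighbours on chromosome 13 (Sox4 spans 28948919 to 28953713, mm10) went the other way, with a median log2 ratio of 0.28, and 1 of 20 was called higher and 1 lower.

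**Figure D2:**
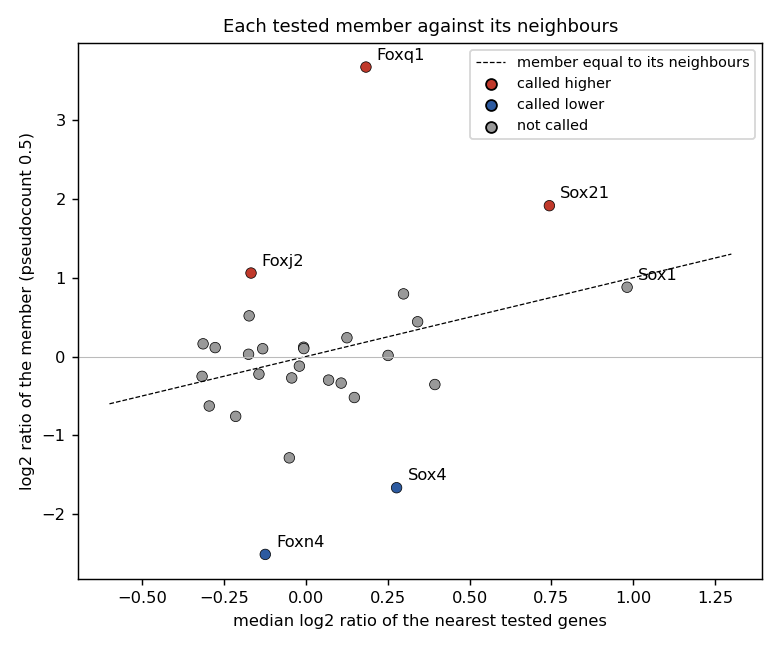
Log2 ratio of each of the 28 tested members (vertical axis) against the median log2 ratio of up to 20 nearest tested genes, 10 on each side (horizontal axis), with called genes in colour and the dashed line where both are equal. Sox1 lies close to the line, at 0.98 and 0.88, while Foxq1, Foxn4 and Sox4 lie far from it.

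Since MTF2 binds CpG-rich DNA, the promoters of the called genes are shown for their CpG content. RefSeq windows (build GRCm38.p6, the reference of mm10) were found for 4 of the 5, and none was matched for Foxq1. Each line gives the 250 bases before the start site, 5′ to 3′ on the gene's strand, with every CG in capitals.
Sox21, chr14:118237031-118237280, minus strand: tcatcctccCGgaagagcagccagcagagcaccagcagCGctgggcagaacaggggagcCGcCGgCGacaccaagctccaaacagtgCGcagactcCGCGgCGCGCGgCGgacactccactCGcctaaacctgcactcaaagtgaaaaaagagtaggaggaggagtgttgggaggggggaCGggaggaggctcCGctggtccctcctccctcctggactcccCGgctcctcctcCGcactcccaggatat
Foxj2, chr6:122819934-122820183, plus strand: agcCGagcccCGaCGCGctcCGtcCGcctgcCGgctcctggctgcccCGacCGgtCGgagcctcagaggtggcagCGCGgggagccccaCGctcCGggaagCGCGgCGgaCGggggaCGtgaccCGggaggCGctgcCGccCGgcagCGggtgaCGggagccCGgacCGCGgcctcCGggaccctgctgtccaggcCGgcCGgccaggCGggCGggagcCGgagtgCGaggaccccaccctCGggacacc
Foxn4, chr5:114273762-114274011, minus strand: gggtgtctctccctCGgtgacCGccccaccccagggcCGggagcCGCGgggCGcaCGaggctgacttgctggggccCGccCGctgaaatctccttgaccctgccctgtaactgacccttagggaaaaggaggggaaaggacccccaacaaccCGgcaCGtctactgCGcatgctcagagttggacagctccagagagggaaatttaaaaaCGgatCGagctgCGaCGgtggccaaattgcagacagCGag
Sox4, chr13:28953700-28953949, minus strand: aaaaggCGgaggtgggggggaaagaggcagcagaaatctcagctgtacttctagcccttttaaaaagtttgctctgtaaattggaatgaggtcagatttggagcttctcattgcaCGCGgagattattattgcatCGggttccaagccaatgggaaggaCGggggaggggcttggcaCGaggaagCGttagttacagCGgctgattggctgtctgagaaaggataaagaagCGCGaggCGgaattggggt
These stretches hold 17 CG in Sox21, 36 in Foxj2, 17 in Foxn4 and 11 in Sox4. In the whole windows of 300 bases, which reach 50 bases past the start, the counts were 22, 37, 22 and 12, against a median of 7 over all 32851 RefSeq promoter windows and 21 over the 11278 windows of tested genes. The median of the 4 was 22, beside 31 over the 18 windows of members tested and not called. Sox21 and Foxn4 thus lay near the median of tested genes, Foxj2 above it and Sox4 below it.

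Over the family, 38 of the 58 genes had at least 1 window, 46 windows in all. Their median was 18.5 CG, with an interquartile range of 6.5 to 30.2. The 22 windows of tested members had a median of 26.5 and the 24 windows of members not tested a median of 10. The richest was Foxk2, a broadly expressed gene, with 59 CG in 300 bases, more than 99.9% of all windows. The letters GCG, counted on both strands with overlaps, occurred 21 times in the windows of Foxj2 and Sox21, 17 times in Foxn4 and 9 times in Sox4. The median was 4 over all RefSeq windows, 15 over the windows of tested genes and 23.5 over those of members tested and not called. The forkhead core TGTTTAC, on either strand, was in 2 member windows, those of Foxa1 and Sox12, and in 3.65% of all windows. These matches are letters in a window and say nothing on binding.

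The SoxB1 genes keep neural progenitors undifferentiated, and Sox2, outside the rule, was the one with a high level (602 and 486 FPKM, Cuffdiff q = 0.403 in the authors' deposited table). Sox1 was listed at 2.66 FPKM in control cells and 5.31 FPKM in knockout cells. The log2 ratio was 0.88 with an error of 0.65 (Cuffdiff q = 0.0718 in the authors' deposited table), and it was not called. The unadjusted Cuffdiff p of Sox1 was 0.011. Sox1 lies on chromosome 8 (12395295 to 12400126, mm10) among genes that were raised. Its 20 nearest tested genes, over 3.37 Mb, had a median log2 ratio of 0.98, with 11 called higher and 0 lower. The difference from that median was -0.10. Over chromosome 8 as a whole, the 652 other tested genes had a median log2 ratio of -0.0059, with 75 called higher and 58 lower. Sox3, on the X chromosome, was listed at 3.003 and 4.26 FPKM and was not called (Cuffdiff q = 0.565 in the authors' deposited table). Sox14, the other SoxB2 gene, stood at 0.139 and 0.0944 FPKM and was not tested, so Sox21 supplied nearly all of the SoxB2 level in both genotypes.

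The SoxC genes act together in neuronal and mesenchymal progenitors. Sox12 was listed at 18.6 FPKM in control cells and 20.004 FPKM in knockout cells (Cuffdiff q = 0.824 in the authors' deposited table), and Sox11 at 1.71 and 2.11 FPKM (q = 0.648). With Sox4 called lower and the other 2 not called, the summed SoxC level was 57.9 FPKM in control cells and 33.6 FPKM in knockout cells. Sox4 made up 64.9% of that sum in control cells and 34.2% in knockout cells, and Sox12 32.1% and 59.5%. The leading SoxC transcript was thus Sox4 in control cells and Sox12 in knockout cells.

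Among the SoxD genes, which assist SoxE proteins in cartilage, Sox13 had nearly the same level in both genotypes, 10.7 and 10.8 FPKM (Cuffdiff q = 0.983 in the authors' deposited table). Sox5 (0.815 and 0.405 FPKM) and Sox6 (listed at 0 and at 0.431 FPKM) were not tested. Of the SoxE genes, which direct neural crest, glia, cartilage and testis, Sox8 was tested at 1.17 and 1.89 FPKM with an error of 2.08 and was not called. Sox9 (0.199 and 0.0536 FPKM) and Sox10 (0.216 and 0.140 FPKM) were not tested. Sox15, the single SoxG gene, was listed at 16.0 FPKM in control cells and 17.3 FPKM in knockout cells. Its error of 2.70 was the largest among those 28, and it shares its locus entry with Mpdu1, listed at 638 and 375 FPKM. The vascular gene Sox18 (listed at 0 and at 0.126 FPKM) and the testis gene Sox30 (0.124 and 0.0716 FPKM) were not tested. Sox17 and Sox7 are the SoxF genes outside the rule. They were listed at 0.710 and 46.1 FPKM (not called, q = 0.292) and at 0.367 and 11.3 FPKM (called higher, q = 0.00712), in the authors' deposited table. Sox7 lies on chromosome 14, as does Sox21.

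**Figure D3:**
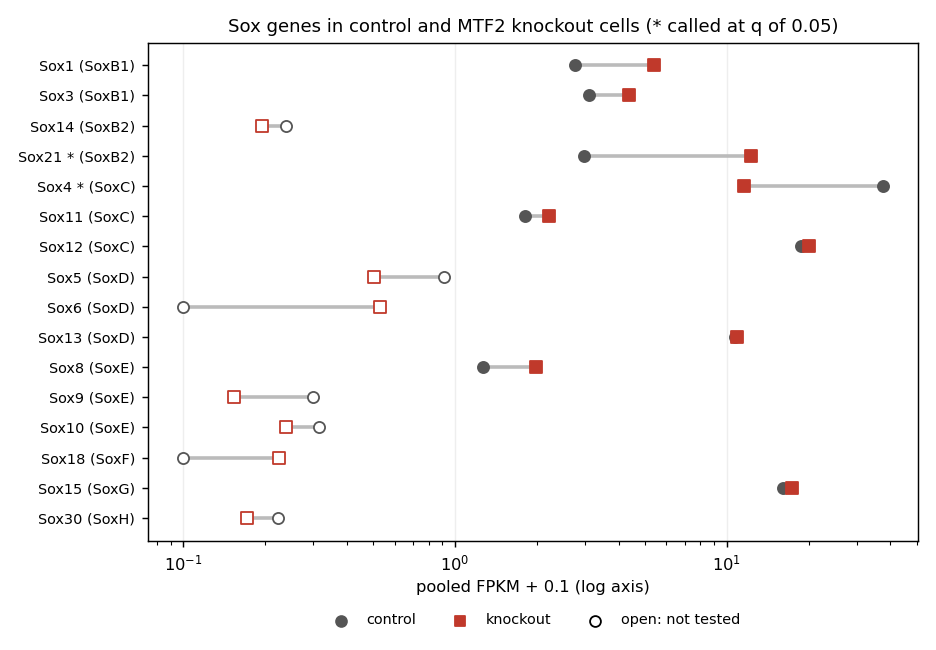
Pooled FPKM plus 0.1 on a log axis for the 16 Sox genes by group in control (circles) and knockout cells (squares), with open symbols for genes not tested and an asterisk for called genes. Sox4 and Sox12 change order, Sox21 goes from 2.88 to 12.2 FPKM, and 7 genes stay under 1 FPKM in both genotypes.

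The forkhead genes with the highest levels in control cells were Foxp4, Foxh1, Foxo4, Foxo3 and Foxm1. None of the 5 was called by Cuffdiff, and 1, Foxp4, had an unadjusted p under 0.05. Foxp4, a FoxP repressor known from lung and gut, was listed at 114.9 FPKM in control cells and 80.0 FPKM in knockout cells, with a log2 ratio of -0.52 and an error of 0.38 (Cuffdiff q = 0.0907 in the authors' deposited table). Foxp1, another FoxP gene, stood at 11.9 and 9.32 FPKM (q = 0.580). Foxp2 and Foxp3, known from speech circuits and regulatory T cells, were under 1 FPKM in both genotypes. Foxp4 made up 90.3% of the FoxP sum in control cells and 88.8% in knockout cells.

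Foxh1, the SMAD partner that carries Nodal signals, was listed at 60.8 and 51.0 FPKM (Cuffdiff q = 0.558 in the authors' deposited table). Of 13 tested genes of a Foxh1 and Nodal list, 2 were called higher and 0 lower: Lefty2, a Nodal inhibitor, at 3.53 and 12.8 FPKM, and Tdgf1, a Nodal co-receptor, at 41.3 and 70.6 FPKM. The 2 calls are 15.4% of the tested list, beside 12.9% of all tested genes, and its median log2 ratio was 0.0037.

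The FoxO genes, whose proteins are kept out of the nucleus by AKT, had a summed level of 101 FPKM in control cells and 87.4 FPKM in knockout cells, and 0 of 4 were called by Cuffdiff. 1 of the 4, Foxo6, had an unadjusted p under 0.05. Foxo4 was listed at 46.2 and 42.4 FPKM, Foxo3 at 43.2 and 35.7 FPKM and Foxo1 at 5.14 and 5.62 FPKM, with q of 0.772, 0.593 and 0.804 in the authors' deposited table. Foxo6, a brain-enriched member, stood at 6.62 and 3.71 FPKM, with a log2 ratio of -0.76, an error of 0.71 and a q of 0.173 in the authors' deposited table. Among 33 tested kinase and regulator genes of FoxO proteins, 3 were called higher and 1 lower (12.1%, beside 12.9% of all tested genes). Called higher were Irs2, an insulin receptor substrate, at 1.18 and 4.39 FPKM, and the deacetylase gene Sirt2 at 13.5 and 30.6 FPKM. Akt1 was called higher at 27.01 and 47.99 FPKM. Irs2 lies on chromosome 8, as does Sox1.

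Of 28 tested FoxO target genes, 5 were called higher and 2 lower, and the median log2 ratio was 0.09. Cdkn1b, a cell-cycle inhibitor gene, went from 47.2 to 119 FPKM. Gadd45b fell from 35.1 to 12.2 FPKM and the autophagy gene Gabarapl1 from 74.9 to 29.1 FPKM. The 7 calls are 25% of the tested list, beside 12.9% of all tested genes, and they went in both directions.

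Foxm1, which activates genes of the G2 and M phases, was listed at 31.4 and 33.7 FPKM (Cuffdiff q = 0.848 in the authors' deposited table). It shares its locus entry with 3 other genes. Of 24 tested target genes of Foxm1, 0 were called higher and 1 lower, Aurkb (36.1 to 21.2 FPKM), and the list median was 0.01. The 1 call is 4.17% of the tested list, beside 12.9% of all tested genes.

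The FoxK genes, regulators of metabolism that antagonise FoxO proteins, stood at nearly equal levels in control cells. Foxk1 was listed at 17.5 and 11.1 FPKM, with a log2 ratio of -0.63 and an error of 0.54, and Foxk2 at 18.1 and 14.6 FPKM. Neither was called (Cuffdiff q = 0.128 and 0.438 in the authors' deposited table), and Foxk1 had an unadjusted Cuffdiff p of 0.0262. In the FoxN class, Foxn2 (10.1 and 7.79 FPKM) and Foxn3 (11.5 and 9.75 FPKM), both broadly expressed, were not called (q = 0.400 and 0.681 in the authors' deposited table), and the thymus gene Foxn1 was listed at 0 and 0.373 FPKM. The summed FoxN level was 35.1 FPKM in control cells and 19.9 FPKM in knockout cells. Foxn4 made up 38.6% of it in control, more than any other FoxN gene, and 9.91% in knockout cells.

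**Figure D4:**
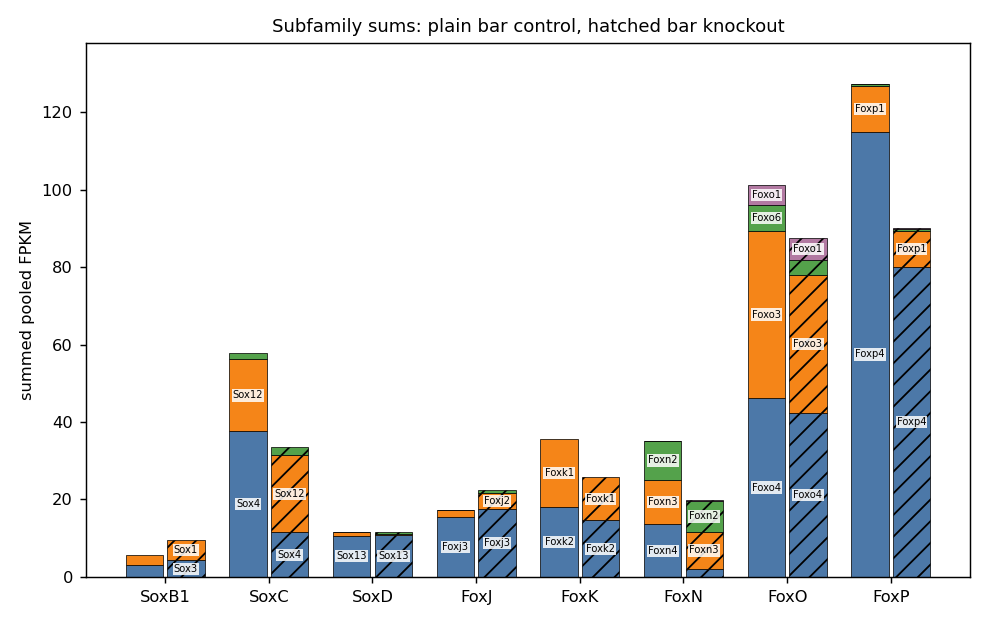
Summed pooled FPKM of 8 subfamilies in control (plain bars) and knockout cells (hatched bars), stacked by gene, without the genes the rule left out. In SoxC and FoxN the sums go from 57.9 to 33.6 FPKM and from 35.1 to 19.9 FPKM, and within these classes Sox4 and Foxn4 shrink most. Over all bars Foxp4 shrinks most, from 114.9 to 80.0 FPKM, and was not called.

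In the FoxJ class, Foxj3 (15.5 and 17.4 FPKM) was not called (Cuffdiff q = 0.715 in the authors' deposited table), and Foxj1, the master regulator of motile cilia, was not tested at 0.0478 and 0.865 FPKM. Of 26 cilia genes in the table, 14 were under 1 FPKM in both genotypes and 7 were tested. 1 was called higher, Ift88 on chromosome 14 (1.52 to 6.22 FPKM), and 0 lower. Foxa3, an endoderm pioneer factor, stood at 5.95 and 6.08 FPKM (q = 0.972 in the authors' deposited table), and Foxa1 at 0.207 and 0.255 FPKM, not tested. Foxa2, outside the rule, was listed at 0.904 and 9.92 FPKM and was not called (q = 0.493 in the authors' deposited table). Among 11 tested genes of a FOXA and endoderm target list, 7 were called higher and 0 lower, with a median log2 ratio of 2.71. The 3 largest were the keratin gene Krt19 (0.554 to 35.0 FPKM), the claudin gene Cldn6 (4.71 to 74.9 FPKM) and Krt18 (9.55 to 117 FPKM). Foxd3, the pluripotency and neural crest gene outside the rule, was called lower at 94.6 and 56.6 FPKM (q = 0.014 in the authors' deposited table).

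Foxi3, a placode regulator, was listed at 2.38 and 4.50 FPKM with an error of 1.19, and Foxr1 at 1.74 and 0.418 FPKM with an error of 1.79. Neither was called (Cuffdiff q = 0.589 and 0.493 in the authors' deposited table). Among the 23 tested members without a call, 18 had a deposited log2 fold change smaller than its own error. Differences of that size are thus not shown to be absent, and the Cuffdiff p does not follow from this error.

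**Figure D5:**
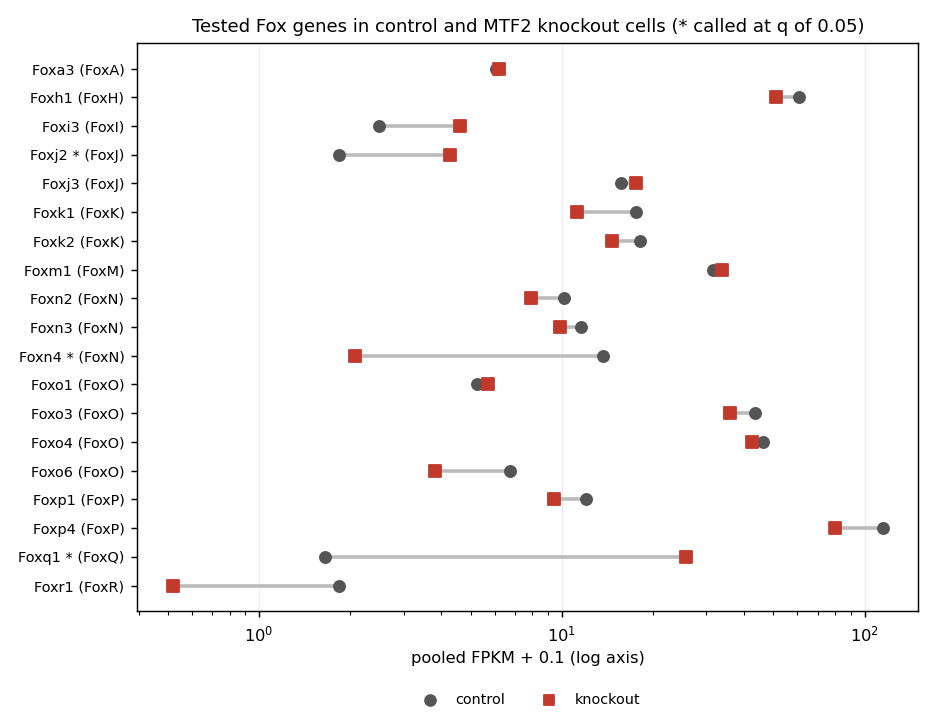
Pooled FPKM plus 0.1 on a log axis for the 19 tested Fox genes in control (circles) and knockout cells (squares), with an asterisk for called genes. Foxq1 and Foxn4 span the widest gaps, in opposite directions, and Foxp4 has the highest level in both genotypes.

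30 members were not tested: 23 Fox and 7 Sox genes. 26 of them were under 1 FPKM in both genotypes. The other 4 were above 1 FPKM in control cells only, among them Foxl2, an ovary regulator (1.31 and 0.747 FPKM), Foxd1, a kidney stroma regulator (1.24 and 0.936 FPKM), and Foxr2 (1.05 and 0.110 FPKM). 10 of the 30 were listed at 0 in control cells and 2 in knockout cells. The value was higher in knockout cells in 18 of the 30, and in 62% of the 5066 other untested genes above 0 in either genotype, so the family share, 60%, lay near that of other low genes. In the B, C, D, E, F, L and S classes no Fox member was tested. Among these, Foxs1 reached 0.935 FPKM in knockout cells and was listed at 0 in control. Foxf1, Foxc2 and Foxl1 stood between 0 and 0.764 FPKM. They share 1 locus entry on chromosome 8 (119910360 to 124345722, mm10), which holds 74 genes in all. The neighbours Foxd2 and Foxe3, 16.3 kb apart on chromosome 4, were both listed at 0 in control, and at 0.711 and 0.450 FPKM in knockout cells.

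The direction of the tested members differed by level. That level is the control value, which is also the denominator of the ratio, so the split itself favours such a difference. Of 16 with 10 FPKM or more in control cells, 11 were lower and 5 higher in knockout cells, with a median log2 ratio of -0.26. Of 12 under 10 FPKM, 10 were higher and 2 lower, with a median of 0.48. Over all tested genes the medians were -0.14 and 0.26 in the same classes, so the same order held there. No tested gene of the table was under 1 FPKM in both genotypes. A gene low in control cells could therefore be tested only if it reached that level in one genotype. All 28 tested members were at 1 FPKM or more in control cells.

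Among genes that work with these families are those of the TLE group, which includes corepressors that bind many Fox and Sox proteins. Of 5 tested genes of this group, 3 were called lower and 0 higher, and 6.03% of all tested genes were called lower. Tle1 was listed at 23.1 and 8.04 FPKM, Tle4 at 26.0 and 15.0 FPKM and Aes at 1235 and 727 FPKM, and the median log2 ratio of the 5 was -0.78. Of 10 tested HMG-box relatives of the Sox genes, 2 were called lower and 0 higher: Tcf7l1, a WNT-pathway repressor, at 59.3 and 29 FPKM, and the repressor gene Cic at 38.1 and 20.1 FPKM. Of 11 tested partners of Sox proteins, such as Pou5f1, 0 were called by Cuffdiff at a q of 0.05, and 3 had an unadjusted p under 0.05.

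Target lists of the Sox groups held few tested genes, and their counts stand beside 12.9% called over all tested genes. In the cartilage list 13 of 19 genes were under 1 FPKM in both genotypes. Of 6 tested, Col27a1 was called higher (0.518 to 1.87 FPKM) and Col9a2 lower (12.9 to 2.31 FPKM). In the neural crest and glia list, Erbb3 was called lower (3.70 to 1.67 FPKM) and 0 higher, of 7 tested. In the neural list of SoxB1 and SoxC, 1 of 11 tested genes was called lower and 0 higher. It was Stmn2, a tubulin-binding gene of neurons, at 126 and 11.7 FPKM. In the vascular list of SoxF, 1 of 6 was called higher, Efnb2 (0.623 to 4.68 FPKM, on chromosome 8), and 2 lower, Notch4 (4.07 to 1.25 FPKM) and Robo4 (7.51 to 2.02 FPKM).

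Most markers of other cell types were low. Of 9 fibroblast markers, 7 were under 1 FPKM in both genotypes, 0 were called by Cuffdiff and 2 had an unadjusted p under 0.05, with a summed level of 7.06 FPKM in control cells and 13.1 FPKM in knockout cells. Col3a1, Dcn and Postn were listed at 0 in both. Of 9 neural markers 6 were under 1 FPKM in both genotypes, Olig2, Neurog1 and Neurog2 being listed at 0. Tubb3 stood at 145 and 110 FPKM, was not called (Cuffdiff q = 0.908), and lies in the shared locus entry of Foxf1. Of 8 visceral endoderm markers, 1 was called higher, Cubn (0.279 to 5.10 FPKM), with a summed level of 3.69 and 25.1 FPKM. Trophectoderm markers summed to 52.0 and 53.0 FPKM, with 0 called higher and 1 lower of 4 tested. Mesoderm (6.25 and 5.22 FPKM), neural crest (7.03 and 8.63 FPKM) and multiciliated markers (25.02 and 15.2 FPKM) had 0 Cuffdiff calls, and 1 multiciliated marker had an unadjusted p under 0.05.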

How the data were processed

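RNA-seq of 3 control and 3 MTF2 KO libraries was analysed from a table of genes. Tools in the submitters' processing notes are Cuffdiff 2.2.1.3, TopHat2 2.1.0, Bowtie 1.0 and deepTools, and the builds there are mm10 and mm9, each without a stated role. Per the file headers, the authors deposited 1 pooled FPKM per gene and genotype, a log2 fold change with no pseudocount, a test score, and a p-value and q-value. Depth per library is unknown. Locus starts were moved to 1-based. Of 49 members with a locus entry of their own that matched RefSeq (GRCm38.p6) by symbol, 47 started within 2 kb, so coordinates are given as mm10.

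Ratios used a pseudocount of 0.5. A call needs the table's status OK and a q of 0.05 or less. The pooled values allow no SD, test over libraries or leave-one-out. Neighbours are the 10 nearest tested genes on each side, fewer at chromosome ends. The recomputed adjustment was tested on simulated data. The members, 13 lists with 269 entries and 9 marker lists were chosen with earlier results of these data known. All tested members were named, untested ones at 1 FPKM or more, other untested members mainly by class, and up to 3 called genes per list. Some genes that this rule takes are not reported here. Foxf2, Foxc1, Foxs1, Foxd2, Foxe3, genes sharing a locus entry, uncalled FOXA list genes and individual markers were named after their values were seen. Alternatives were other thresholds, filters, pseudocounts and p from the score. Python 3.11.15, pandas 2.3.3 and scipy 1.17.1 were used.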

Additional observations from a re-analysis of the deposited data

How the results depend on the processing

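The 3 higher and 2 lower calls among Fox and Sox genes stayed at 3 and 2 with a 2-fold minimum, with adjustment over genes at 1 FPKM or more in control, and with 1 FPKM or more in both genotypes. At a q of 0.01 they were 2 and 2, Foxj2 being lost. With a normal p from the deposited score, 1 was higher and 2 lower. Foxq1 (q = 0.00352), Sox4 (q = 0.00625) and Foxn4 (q = 0.0242) were called, while Sox21 (q = 0.0683) and Foxj2 (q = 0.742) were not. Over all tested genes with a score this p called 124, beside 1469 of 11362 tested genes by Cuffdiff, so most calls of any kind were lost. In alternatives chosen after seeing the data, 2 higher and 2 lower remained without members sharing a locus entry, which drops Foxq1, and likewise without chromosomes 8 and 14, which drops Sox21. The median log2 ratio of 0.02 became -0.054 without chromosomes 8 and 14, which hold Sox1 and Sox21, and 0.10 over all 58 members, and otherwise moved by less than 0.005. Neither value is far from 0. Of 28 single ratios, 0 changed sign with another pseudocount or centring. 3 did after subtracting the neighbours' median, Foxh1, Sox1 and Sox13, none of them called. No paired analysis was possible because the table holds 1 pooled value per genotype, and leaving out a library was not possible for the same reason.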
